A study of Mus musculus with 12 samples.

Results

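Cytochrome P450 genes encode heme enzymes that insert oxygen into lipids, steroids, retinoids and drugs, and they were followed here in RNA sequencing libraries of whole mouse kidney. The members are protein-coding genes with a symbol of the form Cyp, number, letters, number, without 4 genes of vitamin D and lanosterol metabolism (Cyp24a1, Cyp27b1, Cyp2r1 and Cyp51). Of 56748 genes in the table, 92 met this rule, and the 35 whose mean level over all 12 libraries was 0.5 FPKM or more are described. FPKM count fragments relative to gene length and to library size, so levels can be compared between genes. Of the 57 genes under that level, 17 had no read in any library. Just above the level stood Cyp2u1 at 0.679 FPKM, Cyp46a1 at 0.579 and Cyp3a13 at 0.574, and just below it Cyp2b9 at 0.446, Cyp4f14 at 0.410 and Cyp2c69 at 0.316.

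The kidneys came from male mice aged 8 to 12 weeks in 4 groups of 3 libraries. Krt20 cKO mice, in which the keratin gene Krt20 was deleted in renal proximal tubular cells, underwent ischemia/reperfusion (cKO IR) or sham surgery (cKO sham), and wild-type mice underwent the same (WT IR and WT sham). All mice had pentobarbital anesthesia and flank incisions. In IR both renal pedicles were clamped for 30 min and the mice were killed 24 h after reperfusion, whereas in sham surgery the pedicles were not clamped. The sources used here name neither the promoter that drove the deletion nor the deleted exons. Nothing in the labels ties each library to its own animal, and the p-values thus measure only the spread between libraries, which may be technical. The extraction text mentions retinas while the tissue field gives kidney, and all 12 proximal tubule markers examined passed the level of 0.5 FPKM.

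P450 enzymes of the endoplasmic reticulum take electrons from the reductase Por and from cytochrome b5, and those of mitochondria take them from ferredoxin. In the kidney they are known mainly from the proximal tubule, where the Cyp4a, Cyp2c and Cyp2j subfamilies turn arachidonic acid and other fatty acids into hydroxy acids and epoxides that act on vessels and salt transport. Several renal P450 genes of the mouse, among them Cyp2e1, Cyp4b1 and Cyp7b1, are known to be expressed at different levels in males and females.

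Before the values, 2 near-identical genes have to be told apart, since Cyp2a5 rose and Cyp2a4 fell after IR in wild-type mice. Cyp2a4 is known as a steroid hydroxylase and Cyp2a5 as the coumarin hydroxylase of the mouse. Their coding sequences have 1482 bases each in the GENCODE mouse release 21 annotation and differ at 23 of them (98.45% identity). Of all stretches of 50 coding bases, 38.2% of those in either gene also occurred in another P450 gene, so a short read can fail to name its gene. Coding bases 596 to 655, counted from the start codon, show the kind of difference on which the assignment rests. Capitals mark the 4 bases that differ between the genes, both of which lie on chromosome 7.
Cyp2a4: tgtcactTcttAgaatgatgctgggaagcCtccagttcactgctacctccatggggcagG
Cyp2a5: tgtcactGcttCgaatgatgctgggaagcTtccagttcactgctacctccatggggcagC

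The promoters of this pair are nearly as alike. Over 299 aligned bases of the RefSeq promoter tables (GRCm38.p6, 250 bases before the start of the gene to 50 after it) they differed at 5, marked by capitals. Cyp2a4 lies at chr7:26306942-26307241 and Cyp2a5 at chr7:26835089-26835388, both on the plus strand.
Cyp2a4: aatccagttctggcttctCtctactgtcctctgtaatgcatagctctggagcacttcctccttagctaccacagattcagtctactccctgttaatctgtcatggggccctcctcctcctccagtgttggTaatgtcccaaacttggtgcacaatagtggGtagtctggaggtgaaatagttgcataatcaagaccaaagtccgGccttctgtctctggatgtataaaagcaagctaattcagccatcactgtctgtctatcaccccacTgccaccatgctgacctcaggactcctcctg
Cyp2a5: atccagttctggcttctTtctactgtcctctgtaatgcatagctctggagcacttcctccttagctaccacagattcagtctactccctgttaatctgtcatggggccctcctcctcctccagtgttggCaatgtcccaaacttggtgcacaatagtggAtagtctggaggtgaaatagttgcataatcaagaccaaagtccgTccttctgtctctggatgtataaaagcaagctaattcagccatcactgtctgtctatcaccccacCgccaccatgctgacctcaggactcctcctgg

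A RefSeq promoter was matched for 24 of the 35 members, with 25 entries. The HNF1 element GTTAAT, searched on both strands, occurred in 4 of these 25 and in 7.10% of all 32851 promoters of the same length. The TATA box letters TATAAA occurred in 8 of 25 and in 13.6% of all. Among 13 promoters of members that fell with IR in both genotypes, 2 held GTTAAT and 4 held TATAAA. The HNF4 letters CAAAGTCCA (0.475% of all promoters) and the direct repeat that nuclear receptors bind (0.0396%) were in none of the 25, and the xenobiotic response core GCGTG was in 8 of 25 and in 32.4% of all. Such matches describe the letters only. The promoters of Cyp2d26, which had the largest fall in cKO IR, at chr15:82794196-82794495 on the minus strand, and of Cyp2e1, the third most abundant member, at chr7:140763569-140763868 on the plus strand, are shown with these matches (GTTAAT and TATAAA, on either strand) in capitals.
Cyp2d26: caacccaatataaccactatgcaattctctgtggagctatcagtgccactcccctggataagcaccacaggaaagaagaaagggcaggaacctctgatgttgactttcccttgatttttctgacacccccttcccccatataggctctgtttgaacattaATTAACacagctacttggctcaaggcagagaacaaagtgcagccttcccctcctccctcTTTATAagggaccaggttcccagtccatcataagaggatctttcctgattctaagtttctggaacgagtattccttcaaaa
Cyp2e1: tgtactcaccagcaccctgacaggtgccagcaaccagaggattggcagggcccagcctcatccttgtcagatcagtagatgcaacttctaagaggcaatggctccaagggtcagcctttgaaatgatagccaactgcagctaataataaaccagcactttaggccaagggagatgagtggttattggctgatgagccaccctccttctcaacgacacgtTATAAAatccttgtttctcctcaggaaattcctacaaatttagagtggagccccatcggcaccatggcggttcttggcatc

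The 12 libraries held 13187531 to 15962303 reads each. Krt20 itself stood at 28.2 to 47.0 FPKM in cKO IR and 59.9 to 84.0 in WT IR, and at 0 to 0.0343 in cKO sham and 0 to 0.157 in WT sham. Since the deleted exons are not given, its level does not check the deletion. The first principal component of all genes averaging 0.5 FPKM or more (64.4% of the variance) placed the second WT IR library at 10.4, between the other WT IR libraries at 35.8 and 43.3 and the sham libraries at -40.4 to -37.6. The cKO IR libraries lay at 46.7 to 50.4. Of the 23 members called in WT IR against WT sham, 21 were still called without that library, Cyp2a5 and Cyp39a1 were not, and 4 that had not been called were. Since that library lay nearest to the sham libraries, leaving it out tends to enlarge differences between IR and sham in WT. In whole tissue, fewer cells of a type and less RNA per cell cannot be told apart.

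The 35 members belonged to 20 subfamilies and lay on 11 chromosomes, with 11 of them (all Cyp2j and Cyp4a members and Cyp4b1) on chromosome 4. Levels were very uneven: 6 members reached 100 FPKM, 16 reached 10 and 31 reached 1. Cyp4b1, Cyp2j5 and Cyp2e1 together made up 66.6% of the summed mean of the 35. Subfamilies with several members followed, Cyp4a at a summed mean of 347 FPKM, Cyp2a at 199.6 and Cyp2d at 99.9. Among the others, the sterol enzymes Cyp7b1 and Cyp27a1 averaged 36.2 and 17.5 FPKM, the 4 Cyp4f members summed to 17.2 FPKM, and the epoxygenase Cyp2c23 averaged 10.9 FPKM.

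Summed over the members, P450 expression was lower after IR in both genotypes. The sums were 1645, 1867 and 1447 FPKM in cKO IR and 1697, 2758 and 1217 in WT IR. They were 2867, 3071 and 3043 FPKM in cKO sham and 3943, 3902 and 4493 in WT sham. No IR library reached a sham library of its own genotype, and the second WT IR library stood above the other IR libraries. The members took 0.396% ± 0.0386 of the reads in cKO IR and 0.465% ± 0.162 in WT IR, against 0.680% ± 0.0257 in cKO sham and 0.904% ± 0.0506 in WT sham (SD, n = 3 each).

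**Figure D1:**
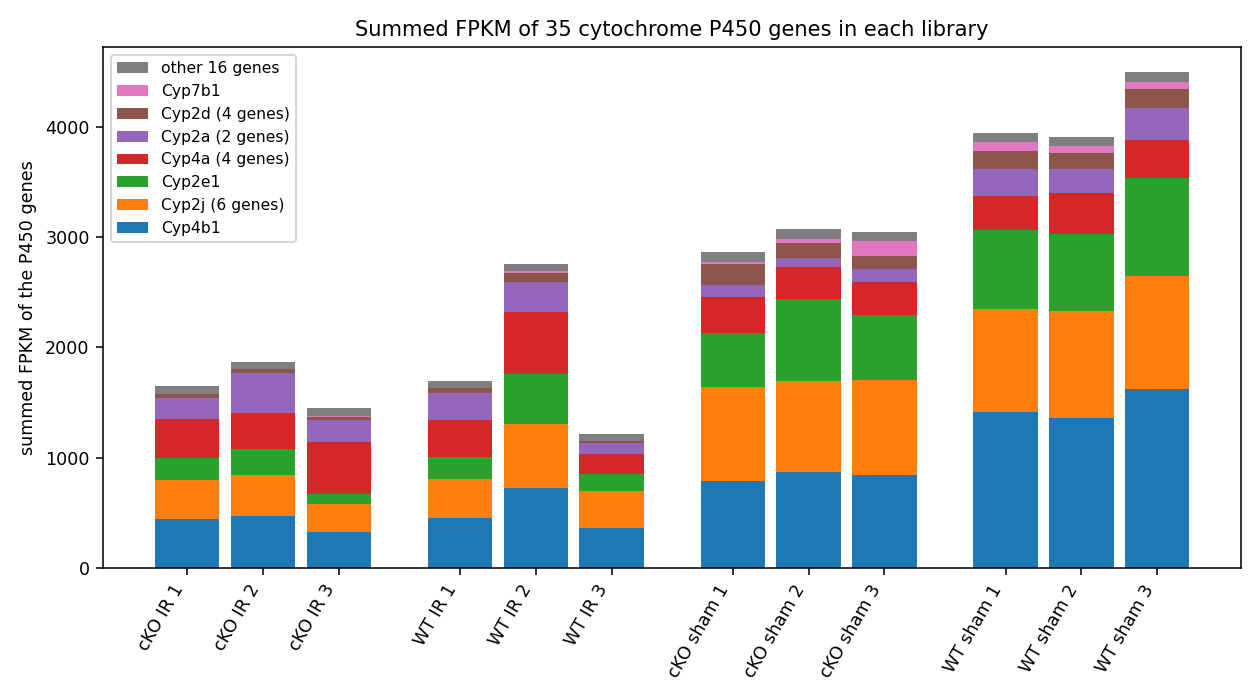
Stacked bars give the summed FPKM of the 35 cytochrome P450 genes in each of the 12 libraries, split by subfamily. The bars of the 3 cKO sham libraries stand between 2867 and 3071 FPKM, below the 3 WT sham bars at 3902 to 4493, and the second WT IR bar (2758) is the highest among the IR libraries.

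Differences were estimated with limma on log2(FPKM + 1), a scale that understates the change of low genes. Calls required a Benjamini-Hochberg adjusted p under 0.05 over the 15005 genes tested. In cKO IR against cKO sham, 6 of the 35 members rose and 17 fell, and among all genes tested 24.9% rose and 21.9% fell. The median difference was -0.54 over the members and 0.00248 over all genes. In WT IR against WT sham, 4 members rose and 19 fell, against 20.4% and 18.3% of all genes, with medians of -0.56 and -0.00411. The share of members that fell was thus above that of all genes in both genotypes, and the share that rose was below it. Without the second WT IR library, 5 members rose and 20 fell in WT. The 16 members that fell in both genotypes were 16 of 17 in cKO and 16 of 19 in WT, 3 members rose in both, and 8 were called in neither. Cyp3a13, which rose in both, passed the level of 0.5 FPKM only through the IR groups. Cyp46a1, which fell in both, passed it only through the sham groups. Cyp4f18, which rose in WT, averaged 1.24 FPKM in WT IR but 0.301 in WT sham, under that level. The number that rose in WT is the least firm of these counts, since it was 1 when WT IR replicate 1 or WT sham replicate 2 was left out and 2 without WT sham replicate 1 or 3.

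**Figure D2:**
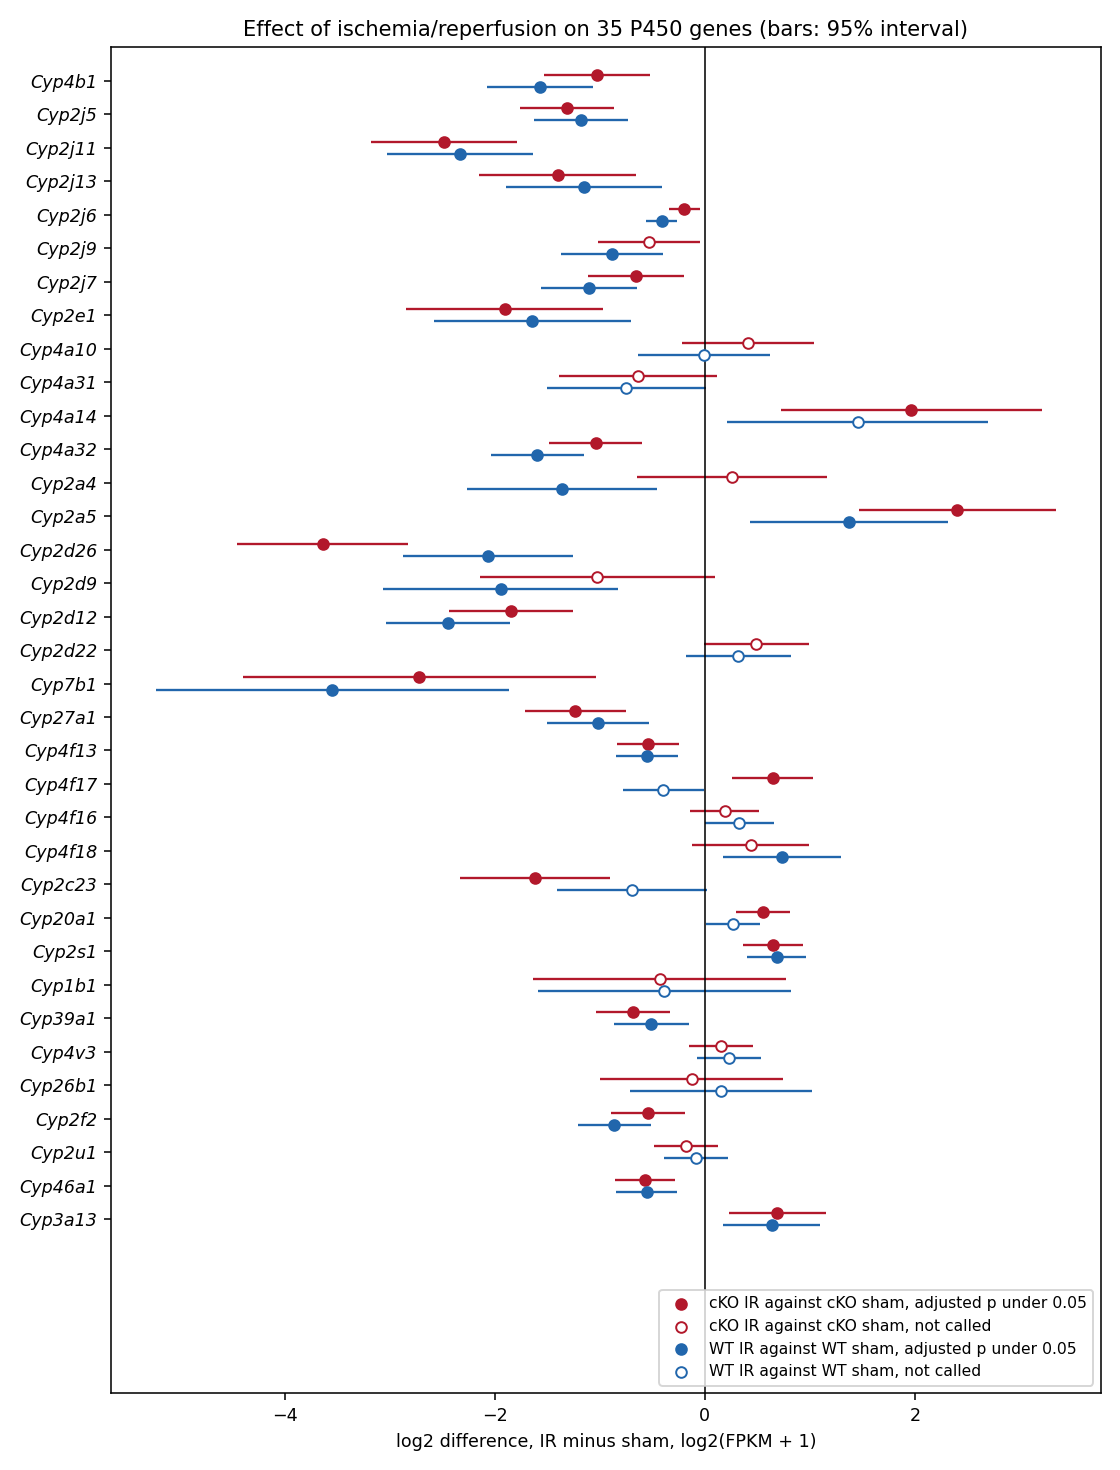
Each row is 1 of the 35 P450 genes, ordered by subfamily level, and each point is the log2 difference between IR and sham within 1 genotype, with its 95% interval. Filled points are genes with an adjusted p under 0.05, and most lie left of 0, with Cyp2a5 at 2.40 in cKO and 1.37 in WT on the other side.

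The fatty acid and arachidonic acid enzymes were the most abundant group. Cyp4b1, a hydroxylase of medium-chain fatty acids that also activates some lung toxins, was the most abundant member. It stood at 447, 467 and 329 FPKM in cKO IR, against 786, 873 and 846 in cKO sham, and at 453, 723 and 362 in WT IR, against 1414, 1359 and 1622 in WT sham. Every IR library was below every sham library of its genotype. The log2 difference was -1.03 (95% interval -1.53 to -0.52, adjusted p = 0.00391) in cKO and -1.57 (-2.07 to -1.06, adjusted p = 0.000547) in WT, by limma. Without the second WT IR library the WT difference was -1.85 (adjusted p = 2.93e-05). Leaving out any 1 library gave -1.85 to -1.35 in WT, with adjusted p-values up to 0.00348 by limma.

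Cyp2j genes encode epoxygenases and hydroxylases of arachidonic acid, and Cyp2j5 is the member best known from the mouse proximal tubule. Of the 6 Cyp2j members, 5 fell in cKO and 6 fell in WT. Cyp2j5 stood at 289, 323 and 215 FPKM in cKO IR, against 676, 667 and 688 in cKO sham. In WT IR it stood at 295, 464 and 268 FPKM, against 718, 751 and 791 in WT sham. The groups did not overlap, with log2 differences of -1.31 (adjusted p = 0.000416) in cKO and -1.18 (adjusted p = 0.00129) in WT, or -1.42 in WT without the second IR library (adjusted p = 7.47e-05). Cyp2j11 changed most within the subfamily, at 17.4, 16.8 and 16 FPKM in cKO IR, against 110.0, 84.8 and 101 in cKO sham. Its levels were 18.5, 46.4 and 14.6 FPKM in WT IR, against 115, 125 and 123 in WT sham. That is a log2 difference of -2.48 (adjusted p = 0.000133) in cKO and -2.33 (adjusted p = 0.000364) in WT, or -2.81 in WT without the second IR library (adjusted p = 5.82e-07). Cyp2j13 fell by 1.40 in cKO and 1.15 in WT on the log2 scale, and Cyp2j7, with a mean of 1.06 FPKM, by 0.66 and 1.10. Cyp2j6, with a mean of 12.0 FPKM, fell by 0.20 and 0.41, and Cyp2j9 fell by 0.89 in WT and was not called in cKO (-0.53, adjusted p = 0.0703 by limma). Some of these calls changed with the libraries or the fit. In cKO, Cyp2j6 was not called without any one of 5 libraries (cKO IR 1, 2 or 3, cKO sham 1 or 3, adjusted p = 0.0553 to 0.112 by limma). Its call was also lost with the replicate number as a block (0.0533), with only the compared groups fitted (0.0782) and with plain library totals (0.13). Cyp2j7 was not called in cKO without cKO IR 3 or cKO sham 1 or 2 (0.0751 to 0.0816). Cyp2j9 was called in cKO without WT IR 2 or 3 (0.0314 and 0.0296), with the block (0.0444) and with only the compared groups fitted (0.0393). In WT, Cyp2j13 was not called without WT IR 1 or WT sham 3 (0.0817 and 0.068).

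Cyp2c23, the arachidonic acid epoxygenase of the mouse kidney once named Cyp2c44, stood at 5.42, 5.63 and 3.15 FPKM in cKO IR, against 22.9, 15.5 and 12.0 in cKO sham. The groups did not overlap and it fell, by limma with a log2 difference of -1.62 (adjusted p = 0.00205). In WT IR its levels were 7.36, 13.4 and 4.93 FPKM, against 11.2, 13.7 and 15.9 in WT sham, a difference of -0.70 that was not called (adjusted p = 0.113). Without the second WT IR library, which was the highest of its group, it was -1.04 with an adjusted p of 0.0146. The IR effect differed between the genotypes by -0.92 (interaction of genotype and IR, adjusted p = 0.403 by limma), which was not called.

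The Cyp4a genes, hydroxylases of the fatty acid chain end that are classic targets of the receptor Ppara, did not move together. Cyp4a14 stood at 76, 97.2 and 159 FPKM in cKO IR, against 35, 28.8 and 18 in cKO sham, and rose by limma with a log2 difference of 1.96 (adjusted p = 0.0148). Leaving out cKO IR replicate 3 or cKO sham replicate 3 gave adjusted p-values of 0.0537 and 0.0563. In WT IR it stood at 111, 141 and 26.9 FPKM, against 18.5, 23.7 and 43.5 in WT sham. There the third IR library lay inside the sham range and the difference of 1.45 was not called (adjusted p = 0.0627). It was 2.18 (adjusted p = 0.0036) without that library.

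Cyp4a32, at 1.43 to 2.36 FPKM in cKO IR against 4.57 to 5.03 in cKO sham, fell with log2 differences of -1.04 in cKO and -1.60 in WT (adjusted p = 0.00166 and 0.000244 by limma), or -1.84 in WT without the second IR library (adjusted p = 1.74e-05). Cyp4a10 and Cyp4a31 were called in neither genotype, with differences of 0.41 and -0.63 in cKO and of -0.01 and -0.75 in WT. Cyp4a31 was called lower in both without the second WT IR library (adjusted p = 0.0474 in cKO and 0.00572 in WT). Cyp4a10 was called higher in cKO when only the compared groups were fitted (adjusted p = 0.0488 by limma). In cKO the IR libraries of Cyp4a10 all lay above sham and those of Cyp4a31 all lay below it. These 3 genes share 40.5% (Cyp4a10), 31.6% (Cyp4a31) and 46.7% (Cyp4a32) of their stretches of 50 coding bases with another P450 gene. Their reads may therefore be split unevenly, and how shared reads were counted is not given in the sources used here. Summed over the 3 genes, the level averaged 275 ± 44.6 FPKM in cKO IR, 268 ± 139 FPKM in WT IR, 275 ± 10.0 FPKM in cKO sham and 311 ± 32.0 FPKM in WT sham (SD, n = 3 each). Cyp4a14 shares no such stretch.

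The Cyp4f genes hydroxylate leukotrienes and long-chain fatty acids. Cyp4f13 fell in both genotypes, by 0.54 in cKO and 0.55 in WT on the log2 scale. Cyp4f18, the leukotriene hydroxylase of mouse neutrophils, stood at 1.97, 0.439 and 1.31 FPKM in WT IR, against 0.519, 0.261 and 0.122 in WT sham. It rose there, with a log2 difference of 0.73 (adjusted p = 0.0412), a call that was lost in 11 of its 19 alternative settings, with adjusted p-values up to 0.158. The libraries whose removal ended it were cKO IR 2, WT IR 1 and 3, cKO sham 1 and 2 and WT sham 2 and 3. In cKO it stood at 0.607, 1.32 and 1.29 FPKM in IR, against 0.570, 0.705 and 0.296 in sham, and was not called (0.43, adjusted p = 0.185). Cyp4f18 averaged 1.07 FPKM in cKO IR and 1.24 in WT IR, against 0.523 in cKO sham and 0.301 in WT sham. Its WT sham mean was thus under the level of 0.5 FPKM that it passed over all libraries. Neutrophil markers rose beside it: of 4 tested, 4 rose in cKO and 3 in WT, and the 5 listed summed to 17.7 to 26.1 FPKM in cKO IR and 10.8 to 52.0 in WT IR, against 2.59 to 3.08 in cKO sham and 1.74 to 2.48 in WT sham. Of all genes tested, 24.9% rose in cKO and 20.4% in WT. The part of neutrophils in the level of Cyp4f18 was not tested.

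Cyp4f17 lay above sham in cKO IR and below sham in WT IR. It stood at 9.26, 4.95 and 5.35 FPKM in cKO IR, against 3.99, 3.76 and 3.26 in cKO sham, with no overlap, and rose by limma with a log2 difference of 0.65 (adjusted p = 0.0109). In WT IR it stood at 3.62, 3.56 and 3.12 FPKM, against 4.89, 4.39 and 5.24 in WT sham, also with no overlap, and the difference of -0.40 was not called (adjusted p = 0.0953). The interaction, which is the difference between the genotypes in the IR effect, was 1.04 (95% interval 0.50 to 1.59) and not called (adjusted p = 0.0913). Without cKO IR replicate 1, the highest library, the difference was called in WT (-0.40, adjusted p = 0.00699) and the interaction was 0.80 (adjusted p = 0.0479). The WT difference was also called with only the compared groups fitted (adjusted p = 0.022 by limma).

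Among the enzymes of drugs and foreign compounds, Cyp2e1 was the most abundant. It oxidizes ethanol and turns acetaminophen into its toxic product. Its levels were 206, 232 and 84.9 FPKM in cKO IR, against 497, 743 and 586 in cKO sham, and 201, 458 and 158 in WT IR, against 719.6, 698 and 886 in WT sham. No IR library overlapped the sham libraries of its genotype. By limma the log2 difference was -1.91 (95% interval -2.84 to -0.97, adjusted p = 0.00384) in cKO and -1.64 (-2.58 to -0.71, adjusted p = 0.0111) in WT, or -2.09 (adjusted p = 0.00144) without the second WT IR library. Leaving out any 1 library gave -2.09 to -1.33 in WT, with adjusted p-values up to 0.0452 by limma.

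Of the 4 Cyp2d members, relatives of the human drug enzyme CYP2D6, Cyp2d26 and Cyp2d12 fell in both genotypes. Cyp2d26 stood at 9.36, 7.61 and 5.64 FPKM in cKO IR, against 140.1, 105 and 75.5 in cKO sham. In WT IR it stood at 19.95, 39.6 and 11.3 FPKM, against 92.9, 86.3 and 92.5 in WT sham. The cKO IR libraries were the lowest of all and did not overlap with any other group. The log2 difference was -3.64 (95% interval -4.45 to -2.83, adjusted p = 3.41e-05) in cKO and -2.06 (-2.87 to -1.25, adjusted p = 0.0016) in WT, by limma. Without the second WT IR library the WT difference was -2.51 (adjusted p = 0.000101).

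Cyp2d12 had differences of -1.84 in cKO and -2.44 in WT, where its level was 3.14, 3.67 and 1.67 FPKM in WT IR, against 16.5, 14.7 and 29.3 in WT sham, and -2.61 in WT without the second IR library (adjusted p = 9.44e-05). Cyp2d9, a testosterone hydroxylase, fell in WT (-1.94, adjusted p = 0.0117 by limma) at 14.7, 28.1 and 3.77 FPKM in WT IR, against 55.1, 44.7 and 47.5 in WT sham. The WT difference of Cyp2d9 was -2.53 without WT IR 2 (adjusted p = 0.000978) and -1.22 without WT IR 3 (0.0106), and its call was lost when only the compared groups were fitted (-1.94, 0.052). In cKO its difference of -1.03 was not called (adjusted p = 0.121), although 14.3, 17.1 and 12.5 FPKM in cKO IR lay below 37.8, 21.3 and 35.6 in cKO sham. Without WT IR 2 or 3, which add to the shared spread, the cKO difference of Cyp2d9 was called (adjusted p = 0.0436 and 0.0081). It was also called when only the compared groups were fitted (adjusted p = 0.0106 by limma). Cyp2d22 was called in neither genotype (0.49 in cKO and 0.32 in WT), but was called higher in cKO without WT IR 2 or 3 (0.0241 and 0.0332) and in WT without WT IR 3 (0.0392). With only the compared groups fitted, Cyp2d22 was called higher in cKO (adjusted p = 0.0327 by limma). Each of the 4 shares 11.5% to 30.8% of its stretches of 50 coding bases with another P450 gene.

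Of the Cyp2a pair, Cyp2a5 rose in both genotypes and Cyp2a4 fell in WT. Cyp2a5 stood at 132, 242 and 112 FPKM in cKO IR, against 39.0, 25.5 and 22.4 in cKO sham. It rose there without overlap, with a log2 difference of 2.40 (95% interval 1.46 to 3.34, adjusted p = 0.000997 by limma). In WT IR it stood at 158, 123 and 56.5 FPKM, against 31.5, 30.7 and 62.8 in WT sham. One WT IR library lay inside the sham range, and the difference of 1.37 was called (adjusted p = 0.026) but lost its call when any one of WT IR replicates 1 and 2 and WT sham replicates 1 and 2 was left out (adjusted p = 0.0639 to 0.102).

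Cyp2a4 stood at 81.6, 146 and 42.3 FPKM in WT IR, against 208, 184 and 229 in WT sham, and fell there (-1.36, adjusted p = 0.0228 by limma). That call was lost when WT IR replicate 1 or 3 or WT sham replicate 1 or 3 was left out, with adjusted p-values of 0.057 to 0.0781, and the difference of Cyp2a4 was -1.79 without WT IR replicate 2 (0.00306). In cKO it stood at 56.6, 119 and 81.4 FPKM in IR, against 69.1, 48.7 and 94.6 in sham, overlapping groups with a difference of 0.26 (adjusted p = 0.635). The interaction of 1.61 (95% interval 0.34 to 2.89) was not called (adjusted p = 0.239).

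Since the genes share sequence, their reads were also pooled, a choice made after their values were seen. Cyp2a4 held 26.5%, 29.2% and 37.8% of the pair's reads in cKO IR and 30.2%, 49.8% and 38.6% in WT IR. It held 59.8%, 61.6% and 78.0% in cKO sham and 84.7%, 83.4% and 75.3% in WT sham. Every IR library was below every sham library, so the assigned mix shifted towards Cyp2a5 in each genotype. The pair's summed level was 248 ± 98.0 FPKM in cKO IR and 202 ± 90.9 in WT IR, against 99.8 ± 22.7 in cKO sham and 248 ± 39.3 in WT sham (SD, n = 3 each). How the reads that fit both genes were assigned is not given in the sources used here, and its part in these shares was not tested.

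**Figure D3:**
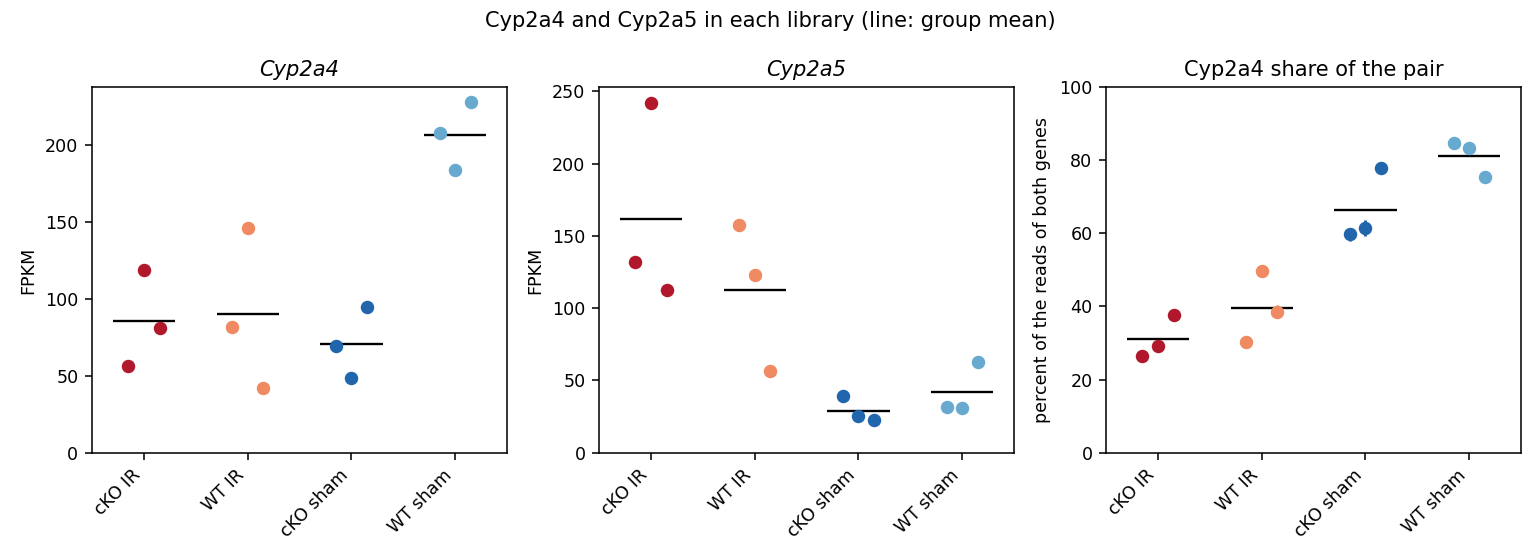
Points are single libraries and lines are group means for the FPKM of Cyp2a4 and of Cyp2a5 and for the share of the pair's reads assigned to Cyp2a4, whose vertical bars are 95% binomial intervals. The share is 26.5% to 49.8% in the IR libraries and 59.8% to 84.7% in the sham libraries.

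Further xenobiotic members were less abundant. Cyp2s1, an enzyme of surface epithelia that responds to dioxin, rose in both genotypes. It stood at 8.38, 8.98 and 6.94 FPKM in cKO IR, against 5.08, 4.86 and 4.42 in cKO sham, and at 8.81, 8.48 and 6.76 in WT IR, against 3.87, 5.38 and 4.63 in WT sham. The groups did not overlap, and the log2 differences were 0.65 in cKO and 0.68 in WT (adjusted p = 0.00192 and 0.0021 by limma), or 0.64 in WT without the second IR library (adjusted p = 0.00559). Cyp3a13, of the subfamily best known for drug oxidation, rose by 0.69 in cKO and 0.63 in WT, at levels of 0.321 to 1.62 FPKM in IR against 0.116 to 0.306 in sham. It averaged 0.892 FPKM in cKO IR and 0.997 in WT IR, against 0.168 in cKO sham and 0.239 in WT sham. It thus passed the level of 0.5 FPKM only through the IR groups. It was not called in WT without WT IR 1 or 3 or any one WT sham library (adjusted p = 0.0604 to 0.114), nor in cKO without cKO IR 1 or cKO sham 3 (0.0664 and 0.054). Cyp2f2, the naphthalene enzyme of the mouse airway, fell by 0.54 in cKO and 0.86 in WT, and lost its call in cKO without cKO IR 3 or cKO sham 2 (adjusted p = 0.0529 and 0.0588). Cyp1b1, a classic target of the dioxin receptor that also hydroxylates estrogens, was called in neither, with 2.57, 2.89 and 13.5 FPKM in cKO IR and 4.34, 1.78 and 9.20 in WT IR spreading around the sham libraries.

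The sterol enzymes fell together. Cyp7b1 hydroxylates oxysterols and some steroids on the way to bile acids. It stood at 3.55, 5.25 and 13.9 FPKM in cKO IR, against 20.9, 39.9 and 133 in cKO sham, and at 3.01, 16.1 and 1.65 in WT IR, against 78.3, 57.5 and 61.0 in WT sham. The groups did not overlap in either genotype, but the cKO sham libraries themselves spread over a wide range. By limma the log2 difference was -2.72 (95% interval -4.40 to -1.04, adjusted p = 0.0133) in cKO and -3.54 (-5.23 to -1.86, adjusted p = 0.00438) in WT. The WT difference was -4.34 without the second WT IR library (adjusted p = 0.000717). The cKO call was lost without cKO IR replicate 1 (-2.36, adjusted p = 0.051) or cKO sham replicate 3 (-1.996, adjusted p = 0.0524), and the cKO difference of Cyp7b1 was -3.30 without cKO sham replicate 1 (adjusted p = 0.00871).

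Cyp27a1, the mitochondrial sterol hydroxylase, stood at 12, 11 and 6.47 FPKM in cKO IR, against 24.7, 23.4 and 23.1 in cKO sham. In WT IR it stood at 11.8, 15.3 and 8.46 FPKM, against 24.1, 22.6 and 26.7 in WT sham. It fell in both, with log2 differences of -1.23 and -1.02 (adjusted p = 0.000991 and 0.0043 by limma), or -1.21 in WT without the second IR library (adjusted p = 0.00143). Cyp39a1, which acts on an oxysterol made in the brain, fell by 0.68 in cKO and 0.51 in WT, and Cyp46a1, the cholesterol hydroxylase of neurons, by 0.57 and 0.56 at sham levels of 0.643 to 1.23 FPKM. Cyp46a1 averaged 0.273 FPKM in cKO IR and 0.273 in WT IR, against 0.897 in cKO sham and 0.874 in WT sham. It thus passed the level of 0.5 FPKM only through the sham groups. The WT call of Cyp39a1 was lost without WT IR 1 or 2 or WT sham 1 or 2 (adjusted p = 0.0536 to 0.109).

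Of the remaining 5 members, 1 was called. Cyp20a1, an orphan P450 with no settled substrate, rose in cKO (0.55, adjusted p = 0.00273 by limma) at 10.7 to 11.7 FPKM in cKO IR, against 6.79 to 7.92 in cKO sham, and was not called in WT (0.27, adjusted p = 0.0904), but was called there without the second WT IR library (0.42, adjusted p = 0.00292). Cyp26b1, which breaks down retinoic acid, Cyp4v3, whose human relative hydroxylates fatty acids in the eye, and Cyp2u1 and Cyp4f16 were called in neither genotype, apart from Cyp4v3 in WT without the second WT IR library (0.38, adjusted p = 0.023). Cyp26b1 stood at 1.08, 1.17 and 4.1 FPKM in cKO IR, against 1.59, 1.61 and 3.41 in cKO sham, and at 1.65, 0.431 and 1.99 in WT IR, against 1.48, 0.504 and 1.21 in WT sham. Its libraries spread more within groups than between them.

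**Figure D4:**
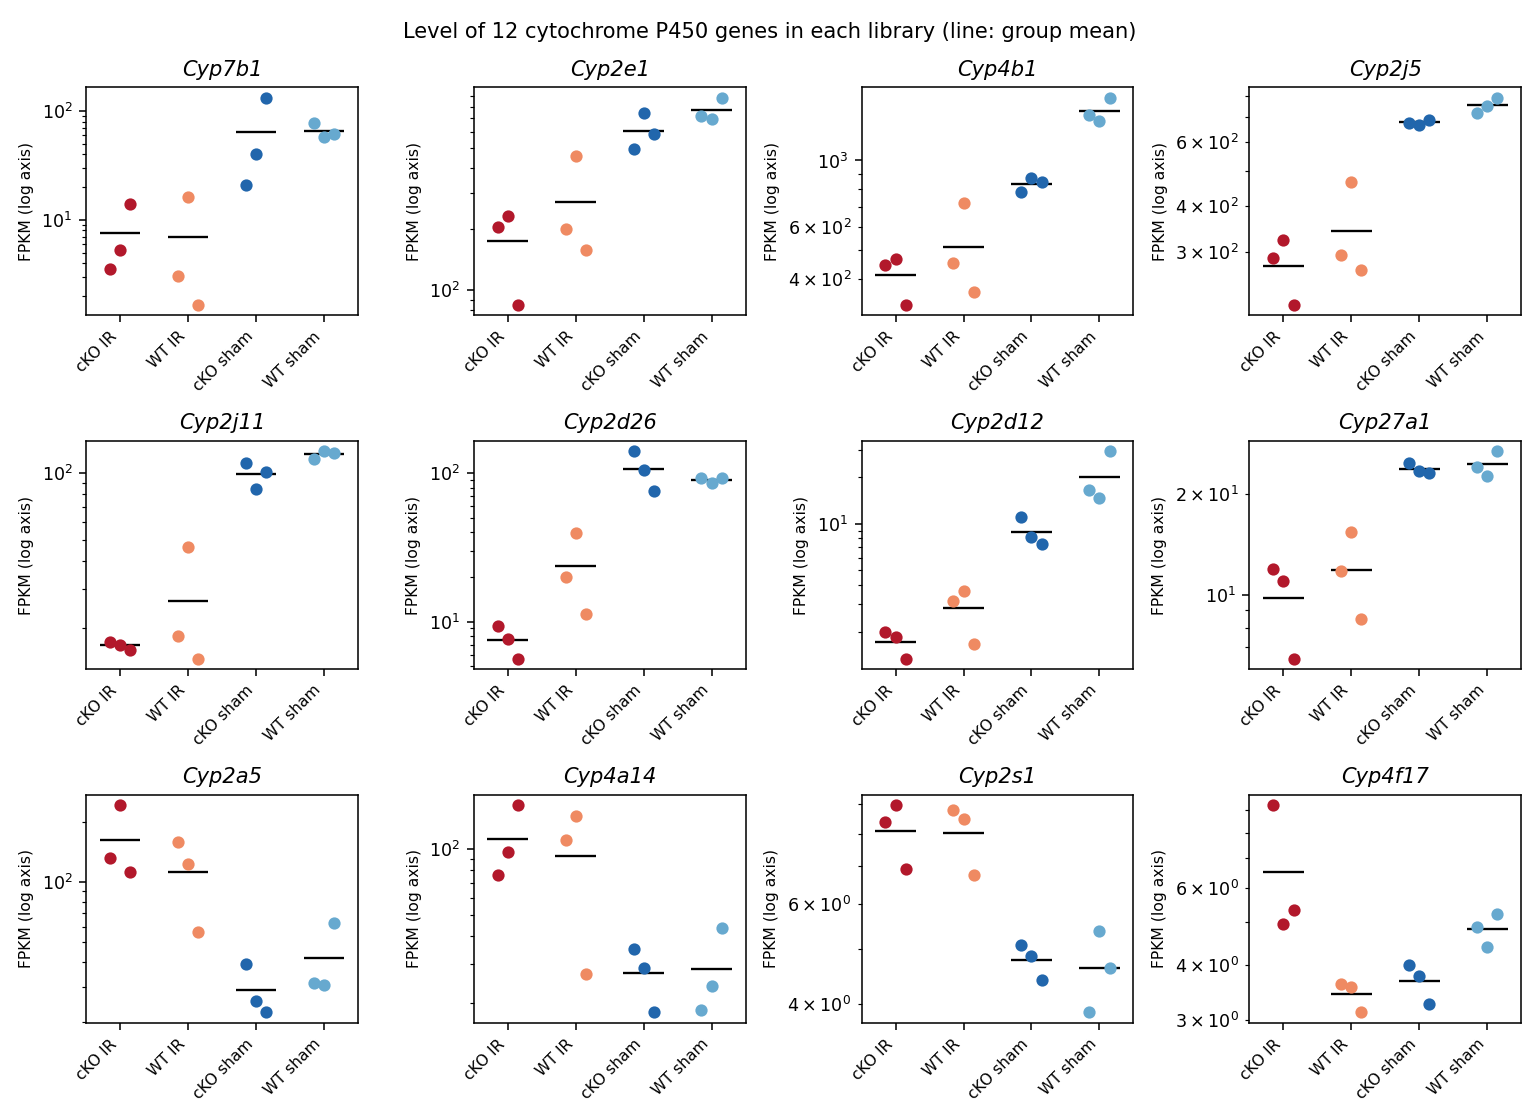
Each panel shows 1 of 12 P450 genes on a log axis of FPKM, with 3 points per group for single libraries and a line at the group mean. Cyp7b1, Cyp2e1, Cyp4b1, the Cyp2j and Cyp2d genes and Cyp27a1 lie lower in both IR groups, whereas Cyp2a5 and Cyp2s1 lie higher.

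Genes that work with P450 enzymes moved in both directions. Among all genes tested, 24.9% rose and 21.9% fell in cKO, and 20.4% rose and 18.3% fell in WT. The lists are short, several of their counts are near these shares, and no list was tested against them. Of 9 electron donors and membrane partners tested, 1 rose and 4 fell in cKO, and 2 rose and 5 fell in WT. Cyb5b, a cytochrome b5 of the outer mitochondrial membrane, fell by 0.73 in cKO and 0.72 in WT on the log2 scale, and Por, the reductase, by 0.64 and 0.55. Cyb5r3, the cytochrome b5 reductase, rose by 0.79 and 0.39. Of 12 genes of heme synthesis and breakdown, 4 rose and 2 fell in cKO, and 4 rose and 4 fell in WT. Hmox1, which degrades heme, rose with log2 differences of 3.42 in cKO and 2.68 in WT, and Uros, a step of heme synthesis, fell by 0.73 and 0.59.

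Of 22 nuclear receptors and other factors known to control P450 genes, 1 rose and 13 fell in cKO, and 1 rose and 10 fell in WT. The 1 that rose in each was Cebpb, a factor of the acute response, by 1.95 in cKO and 0.69 in WT. Ppara fell by 0.53 and 0.66, and the circadian factor Hlf by 2.10 and 0.93. Of 4 genes of the dioxin receptor group tested, 1 rose and 2 fell in cKO, and 1 rose and none fell in WT. Arnt, the partner of the receptor, fell by 0.24 in cKO and Tiparp by 0.32. Nqo1, a quinone reductase, rose by 2.24 in cKO and 1.01 in WT, with an interaction of 1.23 that was called (adjusted p = 0.0264 by limma). It was the only called interaction in these partner lists.

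Of 14 flavin monooxygenases and conjugating enzymes, none rose, while 9 fell in cKO and 6 in WT, led by the glycosyltransferase Ugt3a1 (-2.78 and -2.21). Of 9 sterol and retinoid partners, 3 rose and 5 fell in each genotype. Aldh1a1, which makes retinoic acid, rose by 2.2 in cKO and 1.61 in WT, and Amacr, of the bile acid pathway, fell by 2.51 and 2.24. Of 8 eicosanoid and epoxide partners, 1 rose and 3 fell in each genotype, with the epoxide hydrolase Ephx1 falling by 0.71 and 0.58. Of 4 genes that androgens raise in the mouse kidney, 3 fell in cKO and 2 in WT, among them Slco1a1 (-1.37 and -1.88).

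Markers of cell types and injury were counted in the same way, beside all-gene shares of 24.9% risen and 21.9% fallen in cKO. In WT these shares were 20.4% and 18.3%. Of 12 proximal tubule markers, 11 fell in cKO and 10 in WT. Their summed level, most of it from the androgen-regulated gene Kap, was 8948 to 11585 FPKM in cKO IR and 6719 to 16088 in WT IR, against 18554 to 25965 in cKO sham and 24348 to 26472 in WT sham. All 4 markers of the thick ascending limb and distal tubule fell in cKO and 3 in WT, and of 5 tubular injury markers 4 rose in cKO and 5 in WT. The injury markers include Krt20, the gene deleted in the cKO mice. Fewer markers were called in other lists: 2 of 4 of the collecting duct fell in cKO and 1 in WT, 1 of 5 of the endothelium fell in each genotype, and of 5 macrophage markers 1 rose and 1 fell in each. Of 2 fat markers tested, 1 fell in cKO, and 1 rose and 1 fell in WT. Of 4 liver markers, 1 fell in cKO and 2 in WT, and of 3 adrenal markers tested 1 fell in WT. The part of these shifts in the P450 differences was not tested. Of the adrenal cortex markers, Mc2r, Nr5a1 and Hsd3b1 averaged at most 0.0303 FPKM in each group, while Scarb1, Akr1b7 and Star averaged 2.38, 1.67 and 1.25 FPKM over all libraries. Of the liver markers, Ahsg averaged at most 0.0114 FPKM in each group, while Ttr, Apob, Apoa2, Alb and Apoa1 averaged 27.1, 21.2, 4.21, 2.87 and 0.345 FPKM over all libraries.

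Between the genotypes in sham kidneys, no P450 member was called (cKO sham against WT sham), while 0.993% of all genes were. There were also 0 with voom weights on the recovered reads, and 6 at an unadjusted p under 0.05 in limma, all lower in cKO sham. The share of all genes at that unadjusted level was not counted, so the 6 cannot be set against it. All 3 cKO sham libraries lay below all 3 WT sham libraries for 12 of the 35 members, against 11.6% of all genes, and above them for 1, Cyp26b1. The share of all genes that lay above was not counted, so that 1 cannot be set against it. The 12 were Cyp4b1, Cyp2j5, Cyp2j6, Cyp2j7, Cyp2j11, Cyp2j13, Cyp4a10, Cyp4a32, Cyp2a4, Cyp2d9, Cyp2d12 and Cyp4f17. The median difference was -0.14 over the members and -0.000591 over all genes.

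Cyp2d12 had the smallest p, at 11, 8.21 and 7.32 FPKM in cKO sham, against 16.5, 14.7 and 29.3 in WT sham (log2 difference -1.06, 95% interval -1.65 to -0.47, adjusted p = 0.119 by limma). Cyp2a4, with 69.1, 48.7 and 94.6 FPKM in cKO sham against 208, 184 and 229 in WT sham, had the largest difference (-1.58, interval -2.48 to -0.67, adjusted p = 0.13). Cyp2j6 followed with -0.25 (adjusted p = 0.149) and Cyp4b1 with -0.81 (interval -1.31 to -0.30, adjusted p = 0.167). Cyp4b1 and Cyp2a4 passed the threshold in 2 alternatives. Their adjusted p-values were 0.0243 and 0.0409 when only the compared groups were fitted, and 0.033 and 0.0488 without the second WT IR library, which is in neither group but adds to the shared spread. Cyp2e1 (-0.35, adjusted p = 0.878) and Cyp7b1 (-0.42, adjusted p = 0.926) had intervals that spanned 0, of -1.28 to 0.59 and -2.10 to 1.26. The value of Cyp7b1 ran from -1.14 without cKO sham replicate 3 to 0.17 without cKO sham replicate 1.

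Beside these values, the 12 proximal tubule markers showed no called gene between the sham groups, and the summed FPKM of the androgen-regulated list was 14489 to 22657 in cKO sham and 20593 to 22605 in WT sham. The 4 liver markers tested also had no call, and the liver list summed to 46.8 to 81.3 FPKM in cKO sham and 89.9 to 93.0 in WT sham. The part of these markers in the P450 values was not tested. Among the tubular injury markers, Spp1 was higher in cKO sham (log2 difference 1.07, adjusted p = 0.0324 by limma).

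**Figure D5:**
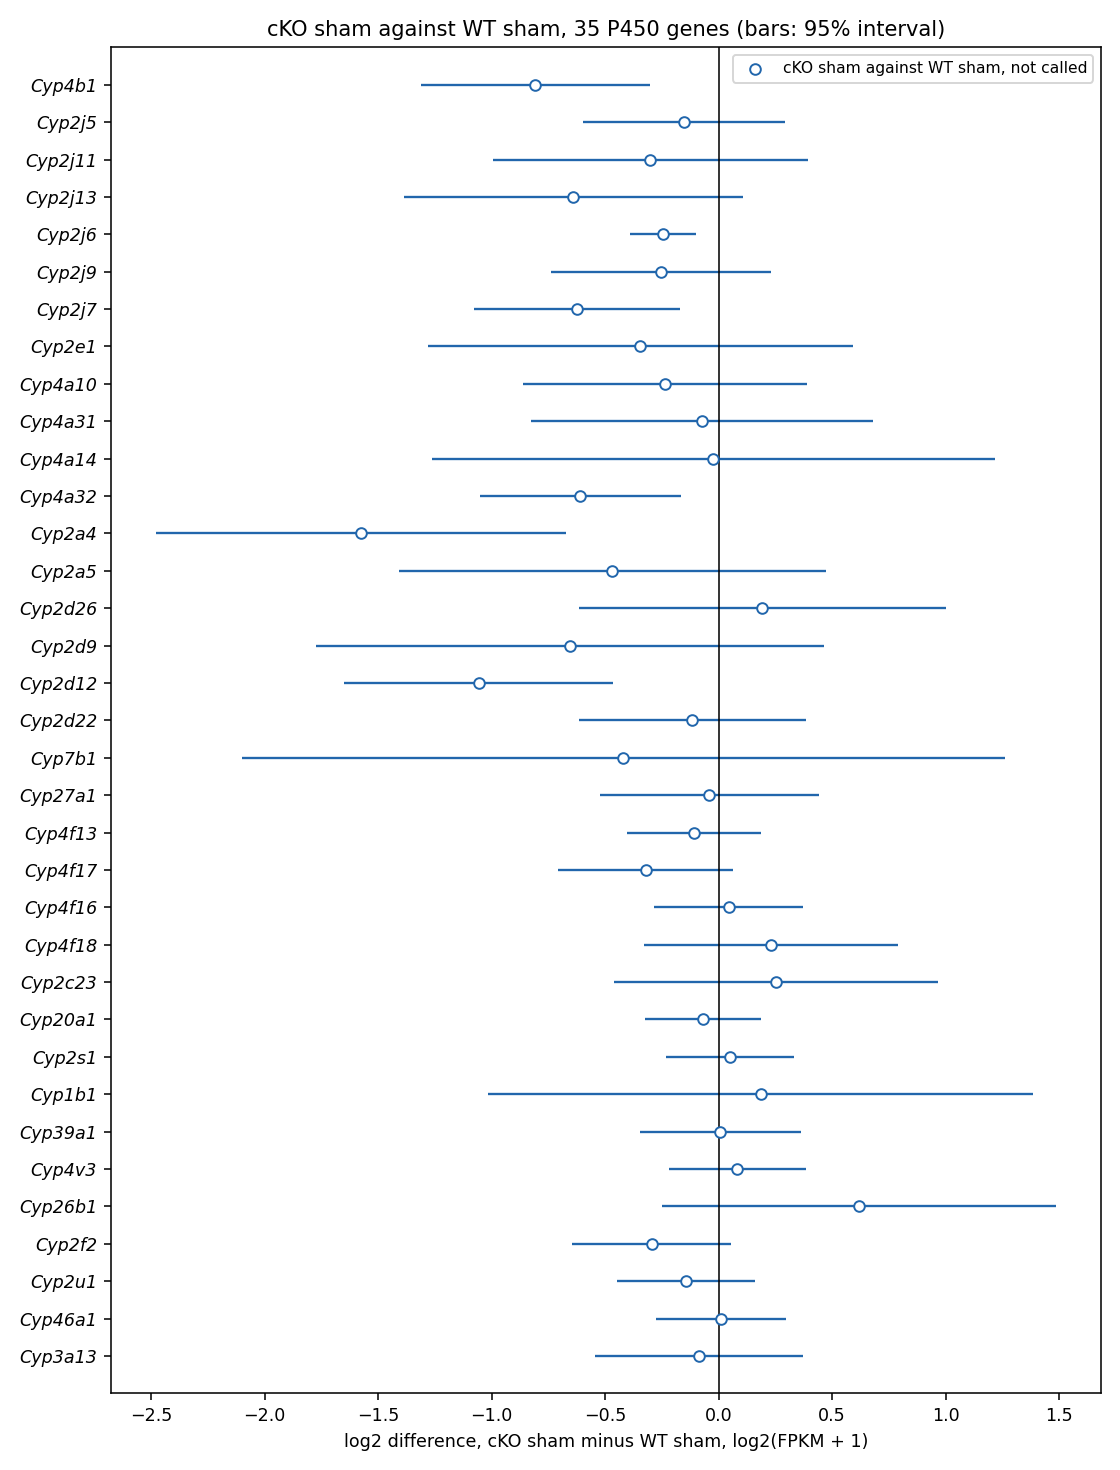
Points are log2 differences of cKO sham minus WT sham for the 35 P450 genes, with 95% intervals, and all are open because none passed the threshold. Cyp2a4 (-1.58), Cyp2d12 (-1.06) and Cyp4b1 (-0.81) lie farthest to the left.

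After IR no member was called between the genotypes either (cKO IR against WT IR), and the share of all genes called was 0.00%. There were also 0 members with voom on the recovered reads, and 3 at an unadjusted p under 0.05. The share of all genes at that level was again not counted. Cyp4f17 was higher in cKO IR (log2 difference 0.72, 95% interval 0.34 to 1.10, adjusted p = 0.179 by limma), and Cyp2d26 (-1.38, interval -2.19 to -0.57, adjusted p = 0.191) and Cyp2j13 (-0.89, adjusted p = 0.276) were lower. Cyp4b1, Cyp2e1 and Cyp7b1 had differences of -0.26, -0.61 and 0.41, with intervals of -0.77 to 0.24, -1.55 to 0.33 and -1.27 to 2.09. Without the second WT IR library they were 0.0145, -0.16 and 1.204, and Cyp7b1 was -0.08 without cKO IR replicate 3 and -0.14 without WT IR replicate 3. The sign of Cyp4b1 and Cyp7b1 thus depended on 1 library. Differences of these sizes could not be told from the spread between 3 libraries a group.

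The effect of IR was not called as different between the genotypes for any member, while 0.786% of all genes had a called interaction. There were again 0 members with voom, and 4 at an unadjusted p under 0.05, Cyp4f17, Cyp2d26, Cyp2a4 and Cyp2j6. Here too the share of all genes at that level was not counted. Cyp2d26 had an interaction of -1.57 (95% interval -2.72 to -0.43, adjusted p = 0.2), from a larger fall in cKO than in WT. Cyp7b1, Cyp2e1 and Cyp4b1 had interactions of 0.83, -0.26 and 0.54, with intervals of -1.55 to 3.21, -1.59 to 1.06 and -0.17 to 1.26. Leaving out 1 library at a time gave 0.24 to 1.62 for Cyp7b1, -0.58 to 0.19 for Cyp2e1 and 0.32 to 0.82 for Cyp4b1, and the upper end of each range was reached without the second WT IR library. Members called in 1 genotype alone, such as Cyp2c23 and Cyp2a4, are therefore not shown to respond differently in the other.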

How the data were processed

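Whole-kidney RNA was sequenced in 12 libraries. The authors deposited 1 table of FPKM with the length of each gene model. Reads were aligned with HISAT2 2.2.1, per the submitters' processing notes, which name mm8 and mm9 as builds. The counting program, its handling of strand and shared reads, and the annotation are not stated in the sources used here, and 0 of the 35 members had the same start and end in GENCODE mouse release 21, so no coordinates of that table are printed. FPKM multiplied by length and by a library size recovered from the smallest steps gave whole reads (largest distance 1.4e-09), and depths and read shares come from these. The deposited values were thus scaled to library sizes of 0.933 to 1.13 times the summed reads, which lay within 0.000415% of 1 constant times the median-of-ratios factors, so that this alternative scaling is nearly the deposited one. Values as deposited were transformed as log2(FPKM + 1) and genes averaging 0.5 FPKM or more were tested with limma 3.58.1 (R 4.3.3), with 1 mean per group over the 12 libraries, a trend in the variance, 8 residual and 2.62 prior degrees of freedom, and two-sided tests. Binomial intervals are exact (Clopper-Pearson, 95%) and cover counting error only. The fit was run on simulated counts with the same spread for every gene and no outlying library. That setting differs from these libraries, so the run does not check the calls made here. The members and the gene lists were chosen with earlier results of these data known. Named are Cyp7b1, Cyp2e1 and Cyp4b1 throughout, up to 6 called members with the largest difference in each direction or else the 3 smallest p-values, members by subfamily, and up to 3 genes per partner list with the smallest p. Ppara and Spp1 were added after their values were seen. Alternatives were another pseudocount, filter, scaling, fit or set of libraries.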

Additional observations from a re-analysis of the deposited data

How the results depend on the processing

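The 46 called differences between IR and sham gave 915 values under the alternatives. Of these, 857 had the same direction and were still called, 58 lost the call and 0 changed sign. Many of these values could not change sign. Another filter, a block for the replicate number, fitting only the compared groups or omitting a library of another group leaves the difference itself unchanged. For Cyp7b1, Cyp2e1 and Cyp4b1, 9 results that were not called, in the other comparisons, gave 177 values, of which 2 were called and 6 changed sign. All 6 came from leaving out 1 library, which gave a range of -1.14 to 0.17 for Cyp7b1 in cKO sham against WT sham, of -0.48 to 0.0145 for Cyp4b1 and -0.14 to 1.204 for Cyp7b1 in cKO IR against WT IR, and of -0.58 to 0.19 for the interaction of Cyp2e1. Over all 35 members, 29 calls that were not reported appeared under an alternative, in 15 pairs of a member and a comparison. Members called higher in WT IR numbered 4, but 2 with a mean of at least 1 FPKM, 1 without a filter and 1 when only the compared groups were fitted. Leaving out 1 library at a time gave 1 to 5 for these, 16 to 20 for members called lower in WT IR, 4 to 7 higher and 14 to 20 lower in cKO IR. Members called lower in cKO sham numbered 2, against 0, when only the compared groups were fitted, and 0 to 2 with a library left out. A called interaction appeared for 0 to 1 member, Cyp4f17 without cKO IR replicate 1 (0.80, adjusted p = 0.0479). No member was called in cKO IR against WT IR under any alternative run. Scaling by plain totals shifted the all-gene median by 0.127 (log2) in WT IR against WT sham, and the split of all genes called higher and lower was 4353 to 2034 instead of 3056 to 2751. Under that scaling Cyp4a14 (adjusted p = 0.0345) and Cyp20a1 (0.0306) were also called in WT and Cyp2d22 (0.0439) in cKO, and Cyp39a1 in WT (0.0935) and Cyp2j6 in cKO (0.13) were not. The cause was not tested.

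No clear pairing of libraries by replicate number was seen: 18 same-numbered pairs had correlations of -0.156 to 0.376, other pairs -0.301 to 0.243, and 4 of 12 libraries correlated best with their own number. These correlations, from 3 libraries a group, cannot exclude a pairing. With the number as a replicate block, 3 members rose and 19 fell in WT IR and 6 rose and 17 fell in cKO IR, and called interactions over all genes numbered 20 higher and 53 lower instead of 38 and 80. Over all genes, those lower in cKO sham were 74 instead of 35 with only the compared groups fitted, and those called in cKO IR against WT IR were 6 higher and 3 lower instead of 0 and 0 without a filter. With 3 libraries a group, differences of members under about 1 FPKM rest on few reads.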

Other observations

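Cyp4a12a and Cyp4a12b, fatty acid hydroxylases whose symbols end in a letter and so fall outside the naming rule, were chosen after their values were seen and were not tested. Cyp4a12a stood at 122, 59.6 and 102 FPKM in cKO IR and 20.5, 19.3 and 77.8 in WT IR, and at 3.95, 9.29 and 21.8 in cKO sham and 37.7, 25.7 and 38.4 in WT sham. Its cKO sham libraries all lay below the WT sham libraries, while 2 of the 3 WT IR libraries did too and the cKO IR libraries lay above both sham groups. Cyp4a12b averaged 37.1 ± 15.05 FPKM in cKO IR and 20.3 ± 1.97 in WT IR, against 4.12 ± 0.879 in cKO sham and 5.93 ± 1.33 in WT sham (SD, n = 3 each). Both are close relatives of each other and of other Cyp4a genes, so reads may be shared between them.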
